A study of Mus musculus with 12 samples.

Results

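The genes described here make the red blood cell what it is. Hba-a1 and Hba-a2 encode the adult alpha chains of hemoglobin, Hbb-bs and Hbb-bt its adult beta chains, Alas2 the erythroid enzyme that starts heme synthesis, Slc4a1 the chloride-bicarbonate exchanger of the red cell membrane, and Ahsp a chaperone of free alpha chains. They were taken as a list of 7 symbols and matched to the Ensembl identifiers of the count tables through mouse gene names. A match was found for 6 of the 7, among 41388 genes in each table. Ahsp was not analysed here.

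Hemoglobin carries oxygen and is built from paired alpha and beta globin chains, each holding a heme group. Red cell precursors make globins and heme together in the bone marrow and lose their nucleus before they enter the blood. The youngest red cells in the circulation, the reticulocytes, still hold globin mRNA, so blood left in the vessels of a dissected brain can bring erythroid transcripts into a brain cell suspension. Low levels of globin mRNA have also been reported in neurons and glia.

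The study profiled 12 RNA libraries from brains of 8 mice aged 7 months. All were labelled Bmal fl/fl; ALDH1L1-CreERT2 on a C57BL\6 background, so floxed alleles of the clock gene Bmal1 were present in every group, and all received 2 mg of tamoxifen by mouth per day for 5 days at 2 months of age. Cre+ animals (astrocyte knockout, aKO) express a tamoxifen-dependent recombinase under ALDH1L1, a promoter active in astrocytes, and Cre- animals served as wild type (WT). Astrocytes, captured from digested brain with beads against the surface epitope ACSA-2, came from 5 aKO mice (203, 205, 208, 221 and 222) and 3 WT mice (201, 202 and 265). Flowthrough, which is every brain cell the beads did not hold, came from aKO mice 203 and 205 and WT mice 201 and 202. The titles of the 4 flowthrough libraries carry a letter b of unstated meaning, so whatever it marks cannot be told apart from the fraction. The labels disagree on the astrocyte library of mouse 202, whose title says wild type while another field says Cre+. The title was followed, since the design text counts 3 wild-type astrocyte samples. Mouse numbers are those in the titles.

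The libraries held 21816637 to 62655238 counts in astrocytes and 33019572 to 53868165 in flowthrough. Levels are given as CPM, a gene's reads scaled to a common library total. The 10 astrocyte markers summed to 2871 to 14174 CPM in astrocytes and to 198 to 4936 CPM in flowthrough. Of the 10, 9 passed as higher in astrocytes (edgeR adjusted p under 0.05), where 8.51% of all genes tested did. The fractions therefore carried the labelled difference, though the sums overlapped. Arntl, the official symbol of Bmal1, had 5.05 to 25.0 CPM in aKO astrocytes and 2.13 to 6.80 CPM in WT astrocytes (log2 fold change 1.33, SE 0.47, edgeR adjusted p = 0.9997). These counts cover the whole gene and do not show how much of it Cre removed, so they do not check the deletion.

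The globin genes sit in clusters of near-identical copies, which limits how finely their reads can be assigned. In GRCm38, Hba-a1 lies on chromosome 11 from 32283511 to 32284465 and Hba-a2 on chromosome 11 from 32296489 to 32297298, both on the plus strand. Hbb-bs lies on chromosome 7 from 103826534 to 103828096 and Hbb-bt on chromosome 7 from 103812524 to 103813996, both on the minus strand. Each of these 4 genes has 3 exons and overlaps no other annotated gene. Of the stretches of 50 bases in the transcripts, 67.5% of those in Hba-a1 and 86.9% of those in Hba-a2 also occur in the other alpha gene. For the beta genes, 65.8% of those in Hbb-bs and 58.3% of those in Hbb-bt are shared. The counting of reads that match both copies was not stated, so the split within each pair is uncertain, and the sums of alpha and of beta reads are the safer values. Slc4a1 lies on chromosome 11 from 102348824 to 102366203 on the minus strand and overlaps no other gene. Alas2 lies on chromosome X from 150547375 to 150570638 on the plus strand, and 311 of its 2403 exonic bases are shared with Apex2 on the other strand. Whether reads were counted by strand was not stated, so Alas2 and Apex2 reads over these bases cannot be told apart. Apex2 itself had 0.939 to 7.98 CPM over the 12 libraries.

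The promoters show what these genes share in sequence besides their protein products. The globins moved together over the libraries, as the values below show, and any part of the promoters in this was not tested. The sequences are the 250 bases before each RefSeq transcription start (GRCm38.p6), 5' to 3' on the gene's own strand. These starts lie inside the gene spans given above, so part of each window is within the annotated gene. Capitals mark 4 short motifs. One is ATATAA, a spelling of the TATA box that positions transcription starts. Another is CCAAT, the box found upstream of many promoters of this kind. Then come CACCC, which transcription factors of the Klf family are known to bind, and GATAA, which transcription factors of the GATA family are known to bind. Each was searched on both strands, and capitals that read as the reverse complement of a motif are matches on the other strand.
Hba-a1, chr11:32283422-32283671: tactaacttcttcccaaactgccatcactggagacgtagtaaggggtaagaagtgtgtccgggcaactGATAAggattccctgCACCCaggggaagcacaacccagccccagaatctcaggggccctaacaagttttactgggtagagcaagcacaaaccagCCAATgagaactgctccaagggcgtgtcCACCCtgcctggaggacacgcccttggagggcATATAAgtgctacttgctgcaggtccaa
Hbb-bs, chr7:103827929-103828178: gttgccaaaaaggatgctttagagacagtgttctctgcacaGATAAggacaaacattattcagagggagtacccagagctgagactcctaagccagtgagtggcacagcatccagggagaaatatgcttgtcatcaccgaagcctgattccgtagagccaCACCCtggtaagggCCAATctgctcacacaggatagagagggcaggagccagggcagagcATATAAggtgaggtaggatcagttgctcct
Hbb-bt, chr7:103813924-103814173: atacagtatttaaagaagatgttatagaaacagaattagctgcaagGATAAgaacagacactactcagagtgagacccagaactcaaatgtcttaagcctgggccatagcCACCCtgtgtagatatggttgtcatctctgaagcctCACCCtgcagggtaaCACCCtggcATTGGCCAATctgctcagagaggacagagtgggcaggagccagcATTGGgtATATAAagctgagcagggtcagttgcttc
Alas2, chrX:150547167-150547416: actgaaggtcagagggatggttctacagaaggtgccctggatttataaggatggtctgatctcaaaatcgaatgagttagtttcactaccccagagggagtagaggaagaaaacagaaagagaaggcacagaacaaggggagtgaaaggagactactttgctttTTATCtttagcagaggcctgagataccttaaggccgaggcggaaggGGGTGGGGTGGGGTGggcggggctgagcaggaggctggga
The Hba-a2 promoter is the same sequence as that of Hba-a1, shifted by 3 bases, with 247 of 247 overlapping bases identical. Hbb-bs and Hbb-bt matched at 127 of 249 bases when aligned without gaps. All 4 globin promoters held all 4 motifs, with ATATAA starting between 28 and 31 bases before the transcription start and GATAA starting between 182 and 209 bases before it. Hbb-bt held 3 copies of CCAAT counting both strands, with a pair on opposite strands directly next to each other, and 3 copies of CACCC. Alas2 held neither ATATAA nor CCAAT in this window, 1 GATAA on the strand opposite to the gene and 3 copies of CACCC end to end on that strand. Among 32851 mouse promoters of the same length, 9.1% held ATATAA, 33.8% held CCAAT, 52% held CACCC and 22.6% held GATAA. These matches are letters in a window and do not show that a factor binds.

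Globin mRNA was scarce in isolated astrocytes and abundant in flowthrough. The 4 globin genes together took 0.0257%, 0.0197%, 0.172%, 0.0253% and 0.0551% of the counts in astrocytes of aKO mice 203, 205, 208, 221 and 222, and 0.0254%, 0.0249% and 0.184% in those of WT mice 201, 202 and 265. In flowthrough they took 1.37% and 0.523% in aKO mice 203 and 205 and 0.326% and 0.811% in WT mice 201 and 202. The lowest flowthrough library therefore stood above the highest astrocyte library. Within astrocytes, aKO 208 and WT 265 were far above the rest, aKO 222 was intermediate and the other 5 libraries were close together. The mean share was 0.0665% ± 0.0697 in the 8 astrocyte libraries (SD) and 0.757% ± 0.454 in the 4 of flowthrough (SD). Counting error is small beside this spread, since the 95% Wilson interval of the lowest share runs from 0.0192% to 0.0202%. Such intervals cover counting error only.

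**Figure D1:**
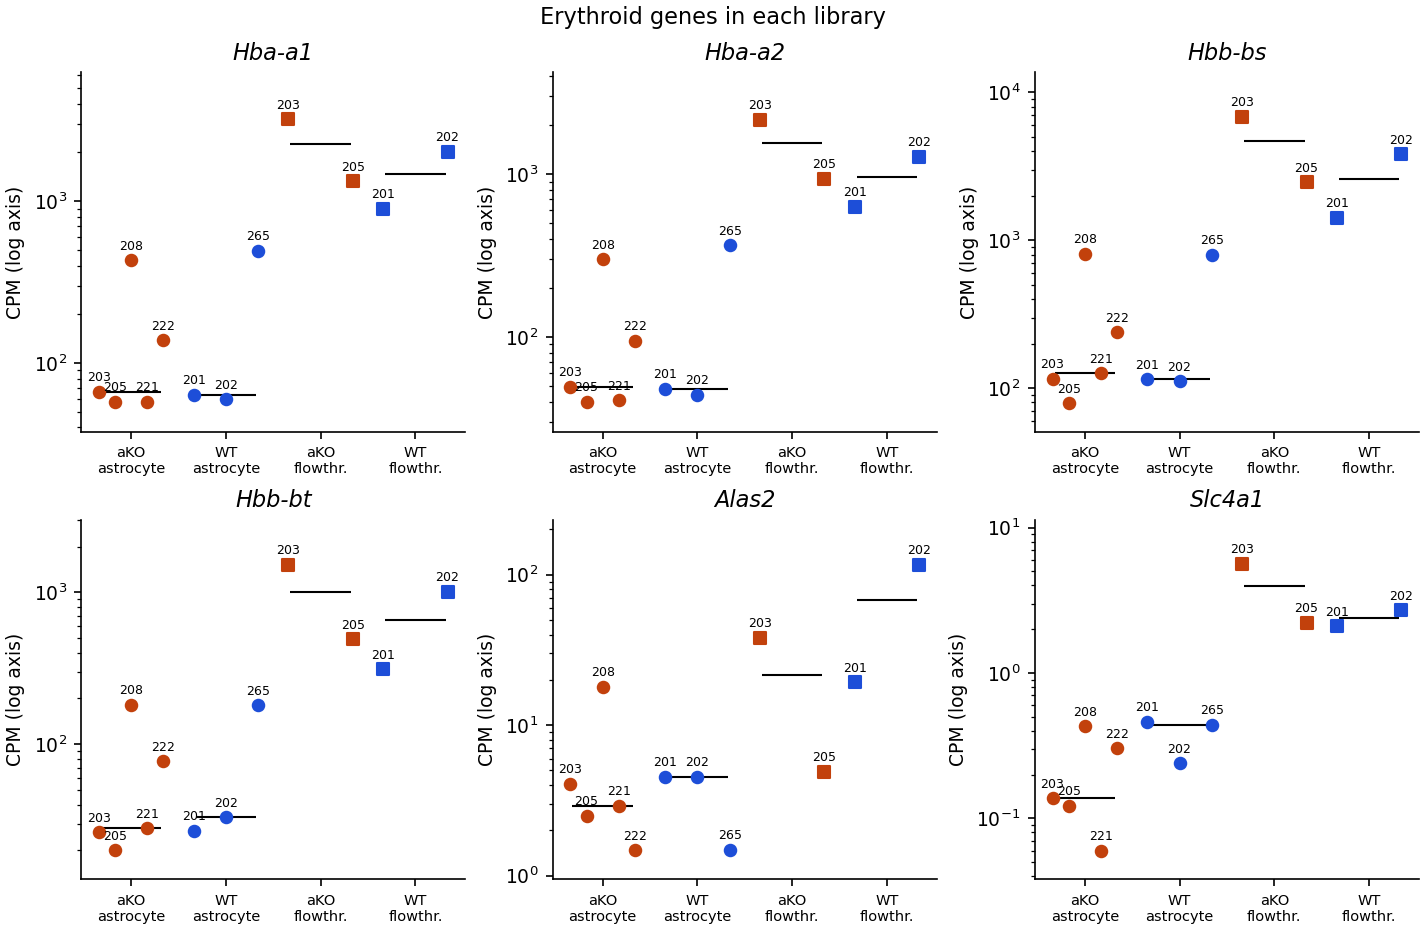
CPM of the 6 measured genes in each library (log axis), with aKO in orange, WT in blue, astrocytes as circles, flowthrough as squares, mouse numbers beside the points and lines at group medians. Flowthrough lies above astrocytes for every gene shown except Alas2, whose ranges overlap. Astrocytes of aKO 208 and WT 265 stand above the other astrocyte libraries for the 4 globins. Overlap of ranges was not counted over all genes.

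Among the alpha chain genes, Hba-a1 had 66.4, 57.8, 431, 57.5 and 139 CPM in aKO astrocytes and 63.6, 59.9 and 493 CPM in WT astrocytes. In flowthrough, Hba-a1 had 3195 and 1333 CPM in aKO and 899 and 2023 CPM in WT. The fractions did not overlap, and the genotypes overlapped within each fraction. Here and below, overlap of ranges is given for the listed genes only and was not counted over all genes. Hba-a2 ran from 40.0 to 365 CPM in astrocytes and from 629 to 2159 CPM in flowthrough, again with no overlap between the fractions.

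The major beta chain gene, Hbb-bs, had 115, 79.2, 810, 126 and 240 CPM in aKO astrocytes and 115, 111 and 798 CPM in WT astrocytes. Its flowthrough values were 6828 and 2466 CPM in aKO and 1420 and 3795 CPM in WT. Again the fractions stood apart and the genotypes did not. Hbb-bt, the other adult beta gene, ran from 20.1 to 182 CPM in astrocytes and from 312 to 1517 CPM in flowthrough.

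Alas2 had 4.08, 2.51, 18.0, 2.91 and 1.48 CPM in aKO astrocytes and 4.53, 4.53 and 1.49 CPM in WT astrocytes. In flowthrough it had 38.1 and 4.91 CPM in aKO and 19.2 and 117 CPM in WT. The fractions overlapped for this gene, because astrocytes of aKO 208 held more Alas2 than flowthrough of aKO 205. WT 265 and aKO 222, which were high in globins among the astrocyte libraries, held the lowest Alas2 of all 12 libraries.

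Slc4a1 was near the limit of detection in astrocytes. It had 0.138, 0.122, 0.431, 0.0600 and 0.304 CPM in aKO astrocytes and 0.463, 0.240 and 0.442 CPM in WT astrocytes, which are 2 to 29 reads per library. The limit that a count of 0 allows, 3 reads, lies between 0.0479 and 0.138 CPM in these libraries. Flowthrough held 5.66 and 2.21 CPM in aKO and 2.09 and 2.69 CPM in WT, above every astrocyte library.

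Per exonic length of the gene, the 6 genes kept one order in all 12 libraries. On the RPKM scale, which divides CPM by that length in kilobases, the order was Hbb-bs, Hba-a1, Hba-a2, Hbb-bt, Alas2 and Slc4a1 from high to low. In flowthrough of aKO 203, the library with most globin mRNA, the levels were 7912, 3935, 3237, 2158, 15.9 and 1.16 RPKM in that order. In astrocytes of WT 265, the astrocyte library with most, they were 924, 607, 547, 257, 0.618 and 0.0903 RPKM. The neighbours Hba-a1 and Hba-a2 lay close together in every library, and their split rests on the shared sequence described above.

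The balance between the globins varied far less than their amount. Their share of counts spanned a 69.5-fold range, while beta reads per alpha read ranged from 1.02 to 1.57 over the 12 libraries, a 1.55-fold range, with a mean of 1.29 ± 0.169 over the 8 astrocyte libraries (SD) and 1.36 ± 0.185 over the 4 of flowthrough (SD). Hba-a1 took 57.0% to 61.3% of the alpha reads, and Hbb-bs took 75.6% to 83.4% of the beta reads. The 4 globins followed each other closely over the libraries, with Pearson r between pairs of at least 0.993 over 12 libraries and at least 0.982 over the 8 astrocyte libraries on log2 CPM. The r over 12 libraries includes the difference between the fractions, which the r over the 8 astrocyte libraries leaves out.

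Alas2 did not keep a fixed ratio to the globins. It had 15.8, 12.7, 10.5, 11.5 and 2.68 reads per 1000 globin reads in aKO astrocytes, and 17.9, 18.2 and 0.809 in WT astrocytes. In flowthrough the ratio was 2.78 and 0.939 in aKO and 5.90 and 14.4 in WT. The range over all libraries was 22.5-fold, and the 4 lowest libraries were astrocytes of aKO 222 and WT 265 and flowthrough of aKO 203 and aKO 205. In WT 265 the 95% Wilson interval ran from 0.587 to 1.12 reads per 1000, and in WT 202 astrocytes from 15.7 to 21.2, so counting error does not bridge them. With the globins, Alas2 correlated at r of 0.72 to 0.75 over 12 libraries and 0.23 to 0.29 over the 8 astrocyte libraries. Slc4a1 correlated with them at 0.94 over 12 libraries and at 0.71 to 0.74 over astrocytes, where it had 2 to 29 reads per library.

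**Figure D2:**
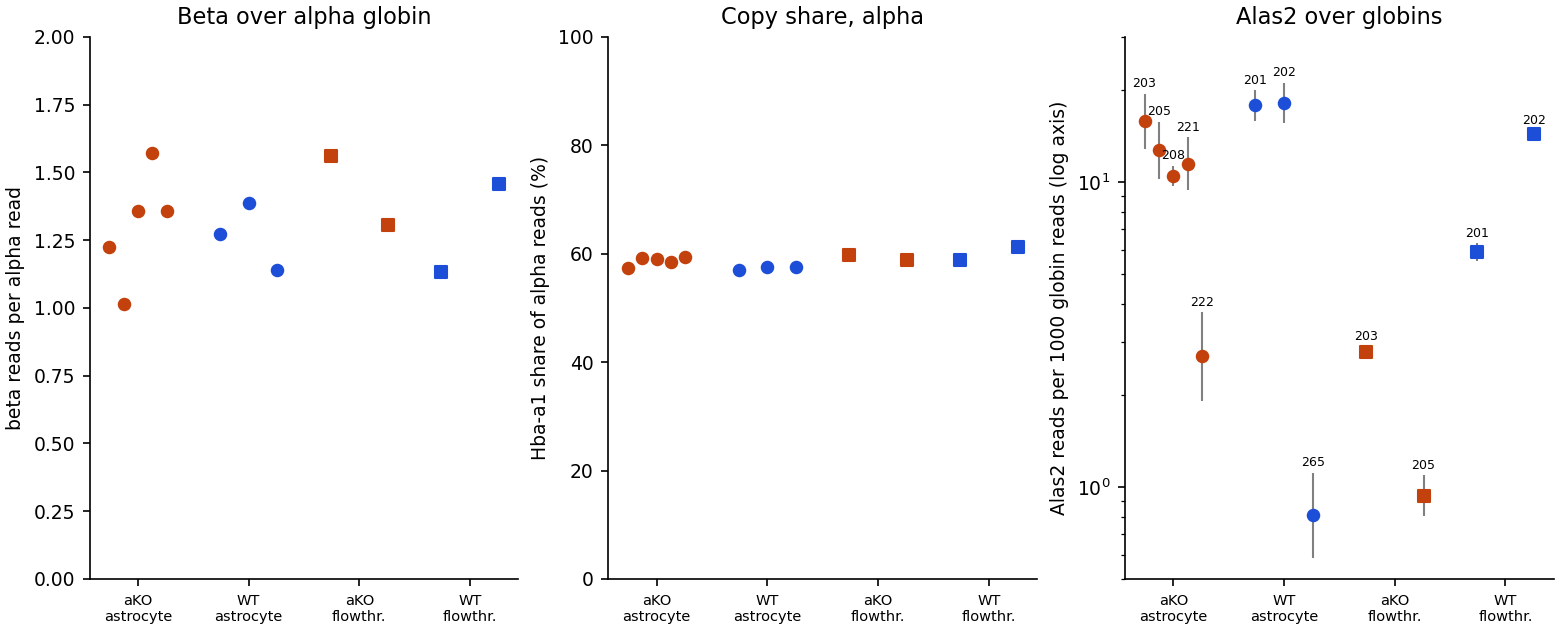
Ratios between the erythroid genes in each library, with aKO in orange, WT in blue, astrocytes as circles and flowthrough as squares: beta reads per alpha read (left), the Hba-a1 share of alpha reads in percent (middle) and Alas2 reads per 1000 globin reads on a log axis with 95% Wilson intervals (right). The left and middle panels stay within 1.02 to 1.57 and 57.0% to 61.3%, while the right panel spans 0.809 to 18.2.

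All 6 genes were lower in astrocytes than in flowthrough, by 9.40-fold to 12.4-fold. The fitted log2 fold changes were -3.50 for Hba-a1 (SE 0.71, 11.3-fold lower, edgeR adjusted p = 0.00265), -3.40 for Hba-a2 (SE 0.69, adjusted p = 0.00291), -3.63 for Hbb-bs (SE 0.72, adjusted p = 0.00245) and -3.59 for Hbb-bt (SE 0.71, adjusted p = 0.00230). Alas2 fell by 3.23 on the log2 scale (SE 0.70, edgeR adjusted p = 0.00550) and Slc4a1 by 3.62 (SE 0.53, edgeR adjusted p = 0.000170). P-values come from quasi-likelihood tests in edgeR, adjusted by Benjamini-Hochberg over 20637 genes. All 6 genes passed as lower, where 8.52% of all genes tested passed as lower, 8.51% as higher and 17% in either direction. Limma voom also called all 6, while DESeq2 called Slc4a1 and gave no p-value for the other 5, adjusted or not. Its log2 fold changes for those ran from -3.66 (Hbb-bs) to -3.28 (Alas2), without a test. The median log2 fold change was -3.55 for the 6 genes and 0.07 for all genes tested. In such bulk samples, fewer cells of a type and less RNA per cell cannot be told apart.

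The 4 mice that gave both fractions showed the same direction one by one. Summed over the 4 globins, astrocytes held 53.2-fold less than flowthrough in aKO 203, 26.5-fold less in aKO 205, 12.9-fold less in WT 201 and 32.6-fold less in WT 202. For Alas2 the fold was 9.34 in aKO 203, 1.96 in aKO 205, 4.24 in WT 201 and 25.8 in WT 202. For Slc4a1 it was 41.2, 18.1, 4.52 and 11.2 in the same mice, lower in astrocytes each time. With the animal as a block over these 8 libraries, the log2 fold changes were -5.09 for Hba-a1, -4.98 for Hba-a2, -5.23 for Hbb-bs, -5.07 for Hbb-bt, -3.09 for Alas2 and -4.10 for Slc4a1, all past the threshold. The same 8 libraries without the block gave -5.17, -5.04, -5.33, -5.21, -3.55 and -4.15, so the larger values came with the choice of libraries and not with the block. Leaving out WT 265 astrocytes alone gave -4.40, -4.29, -4.45 and -4.31 for the 4 globins in that order. For Alas2, the estimate was -2.24 without aKO 203 flowthrough (edgeR adjusted p = 0.0480) and -2.40 without WT 202 flowthrough.

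Other blood and immune cell markers moved with the fraction in the same direction. Markers are counted as lower or higher at an edgeR adjusted p under 0.05. Over all genes tested, 8.52% passed as lower in astrocytes and 8.51% as higher. All 7 mature neutrophil markers were lower in astrocytes, with sums of 106 to 579 CPM against 2790 to 6120 CPM in flowthrough and none of the 7 at 0. All 5 granulocyte precursor markers were lower as well, with 0.689 to 2.94 CPM in astrocytes and 11.4 to 133 CPM in flowthrough, and Ctsg was at 0 in 7 of the 8 astrocyte libraries and Elane and Ms4a3 in 3 each. The 9 microglial markers summed to 293 to 680 CPM in astrocytes and 5607 to 10110.5 CPM in flowthrough, all lower, and the 7 leukocyte markers to 16.9 to 43.4 and 209 to 392 CPM, all lower. Of 7 platelet and megakaryocyte markers tested, 1 passed as lower, a single call from which nothing is read. Their sums were 20.6 to 145 CPM in astrocytes and 102 to 206 CPM in flowthrough. None of 10 endothelial markers passed (351 to 1072 CPM in astrocytes, 390 to 845 CPM in flowthrough). In the other direction, 5 of 7 oligodendrocyte markers were higher in astrocytes, with sums of 3093 to 21190 CPM there and 750 to 6257 CPM in flowthrough, and so were 4 of 6 neuron markers, with 230 to 1281 CPM and 15.3 to 402 CPM. Ttr, the main choroid plexus transcript, took 7.18% ± 5.47 of counts over the 8 astrocyte libraries (SD) and 19.5% ± 9.81 over the 4 of flowthrough (SD), a difference that did not pass (log2 fold change -1.63, SE 0.65, edgeR adjusted p = 0.0962). The mitochondrial share of counts averaged 22.9% ± 8.33 over the 8 astrocyte libraries (SD) and 7.69% ± 3.74 over the 4 of flowthrough (SD). The part of these differences in the fall of the erythroid genes was not tested.

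Lists of the wider erythroid program fell in part between the fractions, as the immune markers above did. The median log2 fold change was -4.22 for the microglial, -4.19 for the mature neutrophil and -3.47 for the leukocyte markers. Which cells the falls in the erythroid lists came from was not tested. Of 11 genes for the red cell membrane and skeleton, 5 fell in astrocytes and 1 rose, where 8.52% of all genes fell and 8.51% rose. The median log2 fold change of the 11 was -1.08, and 0.07 over all genes. Ermap, an erythroblast membrane protein, fell by 4.33 (SE 0.43, edgeR adjusted p = 5.99e-06), and the blood group genes Rhd by 4.21 (SE 0.89, edgeR adjusted p = 0.00466) and Kel by 3.66 (SE 0.81, edgeR adjusted p = 0.00515). Rhd had 14.7 and 0.545 CPM in flowthrough of aKO 203 and 205 and 8.38 and 9.12 CPM in that of WT 201 and 202. Epb42, a protein that ties the exchanger Slc4a1 to the membrane skeleton, fell by 4.81 (SE 1.15, edgeR adjusted p = 0.0101). It had few reads, 0 to 9 per astrocyte library and 4 to 43 per flowthrough library. Ank1, the ankyrin that ties the membrane to the skeleton and is also active in other cells, rose by 1.53 (SE 0.49, edgeR adjusted p = 0.0399) and is named after its values were seen. Without aKO 203 flowthrough, Rhd gave -2.39 (edgeR adjusted p = 0.0802) and Epb42 gave -4.04 (edgeR adjusted p = 0.0598), and neither passed. Epb42 also failed without WT 202 flowthrough (-3.84). Without WT 201 astrocytes Rhd gave -5.02.

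Regulators of the erythroid lineage were measured at low levels, with sums over 8 genes of 2.83 to 12.7 CPM in astrocytes and 10.8 to 14.4 CPM in flowthrough. Of the 8, 4 fell in astrocytes and none rose (8.52% and 8.51% of all genes), with a median of -2.13. Nfe2, a transcription factor of red cell and platelet precursors, fell by 4.57 (SE 0.80, edgeR adjusted p = 0.000886). Tal1, a factor needed for blood formation, fell by 2.05 (SE 0.48), Gfi1b, a repressor in red cell and platelet precursors, by 3.07 (SE 0.84), and Hemgn, a nuclear protein of blood precursors, by 3.21 (SE 0.97). Gata1 and Klf1, the factors whose binding cores were sought in the promoters, had log2 differences of -2.22 (SE 0.77, edgeR adjusted p = 0.0577) and -1.45 (SE 0.84, edgeR adjusted p = 0.247) and did not pass. They are named after their values were seen. Gfi1b lost its call without WT 201 or WT 202 astrocytes (-2.90 and -2.98) and without aKO 203 or WT 201 flowthrough (-2.75 and -3.12). Hemgn lost it without aKO 205 or WT 202 astrocytes (-3.14 and -2.94) and without flowthrough of aKO 203, aKO 205 or WT 202 (-2.80, -3.42 and -2.70). It gave -3.99 without aKO 208 and -6.22 without WT 201 astrocytes.

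Globins other than the adult red cell chains behaved differently from each other. Of 6 embryonic and theta globins, 3 had enough reads to be tested and 1 passed as lower (8.52% of all genes). Hbq1b, a theta globin, fell by 4.01 in astrocytes (SE 0.94, edgeR adjusted p = 0.00744), with 0 to 0.574 CPM in astrocytes and 0.989 to 4.36 CPM in flowthrough. Without aKO 208 astrocytes its estimate was -4.68. Hbb-y, an embryonic beta chain, had 389 reads or 16.9 CPM in astrocytes of aKO 222 and 30 reads in those of WT 202, against 0 reads in the other 6 astrocyte libraries. Flowthrough held 8 and 0 Hbb-y reads in aKO 203 and 205 and 1 and 28 reads in WT 201 and 202. Among 3 globins of other cells, Cygb, the cytoglobin of fibroblast-like cells, was the 1 that passed, where 8.51% of all genes rose. It rose by 1.22 in astrocytes (SE 0.35, edgeR adjusted p = 0.0240). Its call was lost without WT 202 astrocytes (1.12), without aKO 205 flowthrough (1.10) and without WT 201 flowthrough (1.16). Cygb did not pass over the 8 libraries of the 4 paired mice, with the animal as a block (0.93, edgeR adjusted p = 0.0553) or without it (0.97, edgeR adjusted p = 0.118). Limma voom did not call it either (1.04, limma adjusted p = 0.0739).

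Later enzymes of heme synthesis, which other cells run too, did not follow Alas2. Of 6 such enzymes, 0 passed in edgeR and 0 had an unadjusted p under 0.05. DESeq2 called 0 of the 6, and so did limma voom. Their median log2 fold change was 0.18. The lowest p-values belonged to Cpox, coproporphyrinogen oxidase, with a difference of 0.63 (SE 0.32, edgeR adjusted p = 0.182), and to Urod, uroporphyrinogen decarboxylase, with -0.46 (SE 0.38, edgeR adjusted p = 0.430). The Urod difference was 0.37 without aKO 203 flowthrough. Among 6 genes of erythroid iron supply, 1 fell and 1 rose, where 8.52% of all genes tested fell and 8.51% rose, and nothing is read from single calls in a list this short. Slc25a37, the mitochondrial iron importer mitoferrin of red cell precursors, fell by 1.19 (SE 0.30, edgeR adjusted p = 0.0121), and Tfrc, the transferrin receptor, rose by 1.03 (SE 0.32, edgeR adjusted p = 0.0353). Slc25a37 lost its call without flowthrough of aKO 205 (-0.86) or WT 201 (-1.11) and under library totals (-0.87). Tfrc lost it without any one of astrocytes of aKO 203, aKO 221, WT 201 or WT 202 (0.96, 1.04, 0.97 and 0.92), and without any one of the 4 flowthrough libraries (0.93 to 1.18).

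Among 9 tested genes of reticulocyte maturation, 2 fell and 1 rose (8.52% and 8.51% of all genes), with a median of 0.10. Car1, the carbonic anhydrase of red cells, fell by 3.30 (SE 0.88, edgeR adjusted p = 0.0196), and Tent5c, a poly(A) polymerase of late red cell precursors and B cells, fell by 1.84 (SE 0.44, edgeR adjusted p = 0.00866). Cpeb4, an RNA-binding translation factor that neurons also use, rose by 1.63 (SE 0.31, edgeR adjusted p = 0.00188). Car1 ran from 0.0870 to 3.22 CPM in astrocytes and from 0.0303 to 28.1 CPM in flowthrough, where the median was 11.5 CPM. The highest flowthrough value was that of aKO 203 and the lowest that of aKO 205. Without aKO 203 flowthrough the estimate was 0.99, in a fit that weighted both genotypes equally and left aKO 205 alone for aKO flowthrough. Car1 also failed without WT 202 or WT 265 astrocytes (-3.32 and -3.15), without WT 201 or WT 202 flowthrough (-3.29 for both) and over the 8 libraries of the paired mice, with the animal as a block (-2.05, edgeR adjusted p = 0.178) or without it (-3.23, edgeR adjusted p = 0.0691). In limma voom Car1 gave -1.61 (limma adjusted p = 0.255). Tent5c failed without aKO 205 flowthrough (-1.65) and under library totals (-1.48).

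Of 7 genes that clear free hemoglobin and heme, 1 fell and 2 rose (8.52% and 8.51% of all genes), with a median of -0.86. Hp, which encodes haptoglobin, the plasma protein that binds free hemoglobin and is also stored by neutrophils, fell by 3.37 (SE 0.47, edgeR adjusted p = 0.000107). It had 6.52 to 16.9 CPM in astrocytes, 9.57 CPM in flowthrough of aKO 205 and 96.0 to 141 CPM in the other 3 flowthrough libraries. Without aKO 203 flowthrough its estimate was -1.96, still past the threshold. Hpx, the heme-binding plasma protein hemopexin, rose by 2.11 (SE 0.57, edgeR adjusted p = 0.0176), and Slc48a1, a heme transporter of endosomes and lysosomes, by 1.28 (SE 0.40, edgeR adjusted p = 0.0384). Hpx gave 3.26 without aKO 203 flowthrough and 2.86 without WT 202 flowthrough, and failed without aKO 205 (1.73) or WT 201 flowthrough (1.76). Slc48a1 failed without astrocytes of aKO 203, 205 or 221 or WT 201 (1.29, 1.23, 1.16 and 1.09) and without flowthrough of aKO 203, aKO 205 or WT 201 (1.20, 1.38 and 1.05). With library 202 counted as aKO, Tfrc (0.93) and Slc48a1 (1.30) did not pass.

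**Figure D3:**
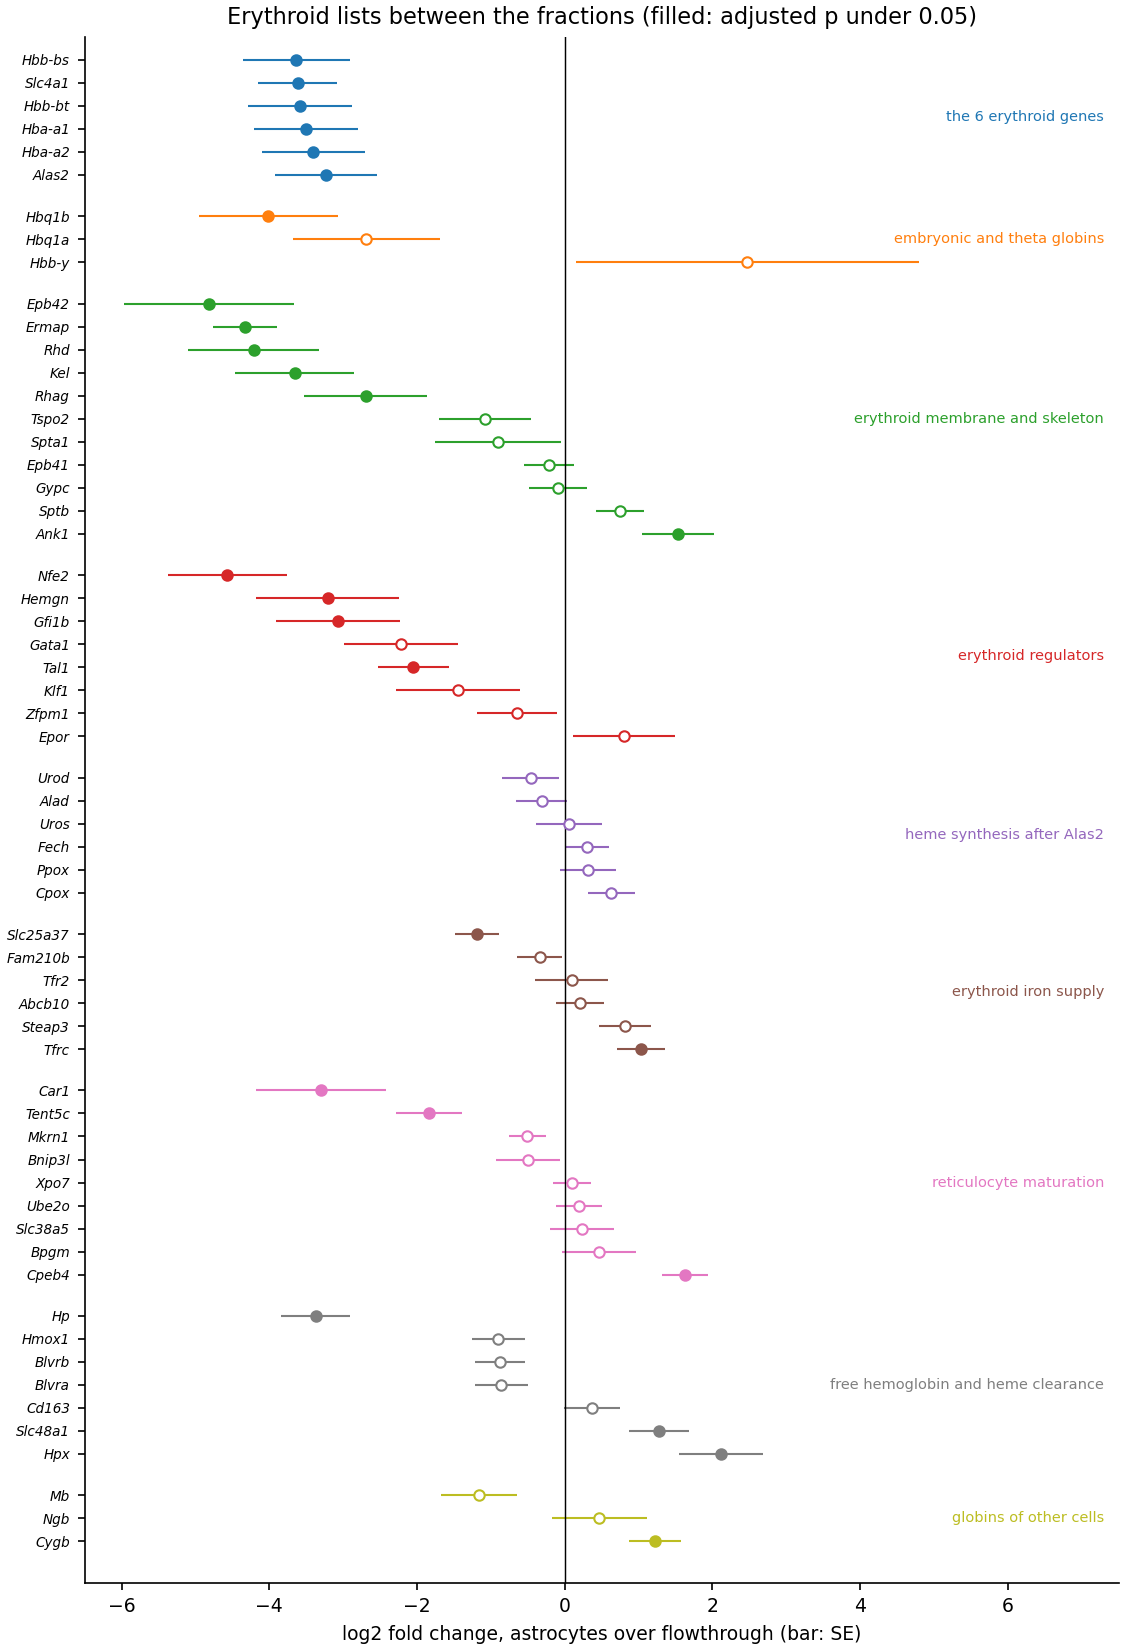
Log2 fold change of astrocytes over flowthrough (points, with SE bars) for the 6 erythroid genes and the genes of 8 related lists, filled where the edgeR adjusted p was under 0.05. The 6 erythroid genes sit between -3.63 and -3.23, the membrane and regulator lists spread around medians of -1.08 and -2.13, and the 6 later heme synthesis enzymes sit around 0.18.

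The main comparison of the series, aKO against WT astrocytes, gave no call for the erythroid genes. In aKO against WT astrocytes, log2 fold changes were -0.62 for Hba-a1 (SE 0.83), -0.71 for Hba-a2 (SE 0.82), -0.48 for Hbb-bs (SE 0.83), -0.41 for Hbb-bt (SE 0.83), 0.66 for Alas2 (SE 0.71) and -0.88 for Slc4a1 (SE 0.84). Each had an edgeR adjusted p of 0.9997 over 18950 genes. None of the 6 passed in edgeR, against 0.0264% of all genes (0.0211% as higher and 0.00528% as lower, 5 genes in all), and 0 had an unadjusted p under 0.05. Limma voom called 0 of the 6, and so did DESeq2, which gave no adjusted p for 1 of them. The groups overlapped for all 6 genes. The sign for the globins rested on WT 265: without it, Hba-a1 gave 1.32, Hba-a2 1.22, Hbb-bs 1.31 and Hbb-bt 1.18. Without aKO 208, Hba-a1 gave -1.51 and Alas2 gave -0.50, neither past the threshold. A difference of the size of these standard errors was not detectable with these libraries.

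The globin-rich astrocyte libraries, 1 per genotype, were also highest in mature neutrophil markers and in platelet and megakaryocyte markers. The 7 mature neutrophil markers summed to 579 CPM in aKO 208 and 568 CPM in WT 265, against 106 to 286 CPM in the other 6 astrocyte libraries. The lowest sum, 106 CPM, was that of aKO 222, which was intermediate in globins at 0.0551% of counts. Ttr, the main transcript of choroid plexus epithelium, took 10.5% of counts in aKO 208 and 17.0% in WT 265, and 1.20% to 9.84% in the other 6. The upper values among these were 9.84% in WT 201 and 9.36% in aKO 205, which were low in globins (0.0254% and 0.0197%). Platelet and megakaryocyte markers summed to 104 CPM in aKO 208, 145 CPM in WT 265 and 100 CPM in aKO 222, and to 20.6 to 80.3 CPM in the rest. Granulocyte precursor markers summed to 0.689 CPM in aKO 208, the lowest of the astrocyte libraries, and 1.12 CPM in WT 265. Leukocyte markers summed to 43.4 CPM in aKO 208, the highest, and 22.5 CPM in WT 265. Microglial markers did not set aKO 208 and WT 265 apart, with 583 and 469 CPM within the range of 293 to 680 CPM of the rest. The 10 astrocyte markers summed to 5849 CPM in aKO 208, 2871 CPM in WT 265 and 4632 CPM in aKO 222. In the remaining astrocyte libraries they summed to 8479 to 14174 CPM. The part of these differences in the globin values was not tested.

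In flowthrough, the 4 globins and Slc4a1 had positive differences between aKO and WT and Alas2 a negative one, none beyond the spread. The log2 fold changes were 0.92 for Hba-a1 (SE 1.14), 0.98 for Hba-a2 (SE 1.12), 1.12 for Hbb-bs (SE 1.17), 0.89 for Hbb-bt (SE 1.14), -1.37 for Alas2 (SE 1.14) and 0.98 for Slc4a1 (SE 0.83). The lowest unadjusted p among the 6 in edgeR was 0.248. None passed after Benjamini-Hochberg adjustment, and neither did any gene of the table (0% of 20637, with 817 genes at an unadjusted p under 0.05). The other tools, DESeq2 and limma voom, called 0 genes, though DESeq2 gave no p-value, adjusted or not, for 5 of the 6. With 2 mice per genotype, single libraries set the values. Without aKO 203, Hbb-bt gave -0.04 and Alas2 -3.39, and without WT 202, Hbb-bs gave 1.86 and Alas2 0.29. The groups overlapped for all 6 genes.

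No difference in the genotype effect between astrocytes and flowthrough was detected for any of the 6 genes. That difference, astrocyte effect minus flowthrough effect, was -1.45 for Hba-a1 (SE 1.4), -1.60 for Hba-a2 (SE 1.38), -1.51 for Hbb-bs (SE 1.43), -1.22 for Hbb-bt (SE 1.4), 2.02 for Alas2 (SE 1.42) and -1.85 for Slc4a1 (SE 1.06). The edgeR adjusted p was 0.956 for each, and the lowest unadjusted p was 0.0990. Over all 20637 genes edgeR called 0%, with 499 genes at an unadjusted p under 0.05. The other tools, DESeq2 and limma voom, also called 0, though DESeq2 gave no p-value, adjusted or not, for 5 of the 6 erythroid genes. Without WT 265 astrocytes, the difference was 0.44 for Hba-a1, 0.28 for Hba-a2, 0.24 for Hbb-bs and 0.34 for Hbb-bt. For Alas2 it was 4.06 without aKO 203 flowthrough, 1.33 without aKO 205 flowthrough, 2.87 without WT 201 flowthrough, 0.36 without WT 202 flowthrough and 0.92 without aKO 208 astrocytes. For Slc4a1 it was -1.09 without aKO 203 flowthrough. None of these passed.

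**Figure D4:**
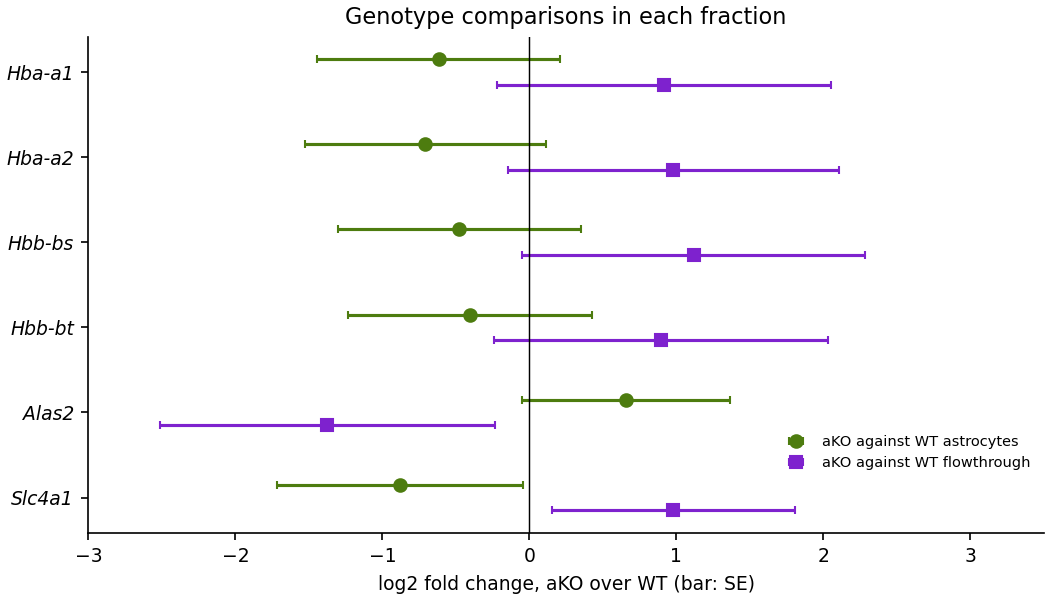
Log2 fold change of aKO over WT for the 6 erythroid genes, in astrocytes (green circles) and in flowthrough (purple squares), with SE bars. No gene passed the test in either fraction, and the signs for the 4 globins are negative in astrocytes and positive in flowthrough, a sign in astrocytes that turns without WT 265.

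Over the pathway lists, no gene passed between genotypes in astrocytes (0 of 42 tested, 1 at an unadjusted p under 0.05), in flowthrough (0 of 53, 1 at an unadjusted p under 0.05) or in the difference of both effects (0 of 53, 1 at an unadjusted p under 0.05). DESeq2 and limma voom called none of them either, with no adjusted p in DESeq2 for 3 of the 42 and for 2 of the 53 in each of the other comparisons. In astrocytes the median log2 fold changes were 0.01 for the 8 tested membrane genes, 0.11 for the 6 later heme synthesis enzymes, 0.20 for the 6 iron supply genes and 0.53 for the 7 clearance genes, beside 0.02 for all genes.

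The genes whose levels most resembled the mean of the 6 erythroid genes over the 12 libraries were ranked by Pearson r on log2 CPM among 15060 candidates. Hmgb2, a chromatin protein of dividing cells, came first with r = 0.97, with 35.9 to 77.9 CPM in astrocytes and 84.5 to 182 CPM in flowthrough. I830127L07Rik followed at 0.96, and Birc5, the cell division protein survivin, and Gp9, a subunit of the platelet receptor for von Willebrand factor, at 0.95. The other 6 were Lcn2, Clec4d, Ly86, Alox5ap, Vpreb3 and S100a8, all at 0.94. S100a8, an abundant neutrophil protein, had 33.1 to 204 CPM in astrocytes and 807 to 2317 CPM in flowthrough. Within the 8 astrocyte libraries the 10 genes had r between 0.76 and 0.92 with the same mean. These 8 are among the 12 libraries used for the ranking, so this r is no separate check. All 10 were lower in astrocytes than in flowthrough in the fitted values, from -4.55 to -1.63 on the log2 scale. The likeness over 12 libraries therefore includes the difference between the fractions.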

How the data were processed

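Gene counts of 12 mouse brain RNA libraries were analysed. Per the submitters' processing notes, the authors worked with GRCm38 and with STAR 2.5.1a, featureCounts 1.4.6-p5, Subread and bcl2fastq, and deposited raw counts per Ensembl gene. The deposited CPM values scale those counts to the library total, and the deposited RPKM values divide them by the gene length column, as recomputation from the counts showed. Whether counting used strand, and how multiply matched reads were treated, is not stated in the labels. Symbols were matched through GENCODE for 40254 of 41388 identifiers, and 1134 had none.

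Counts were tested in R 4.3.3 with edgeR 4.0.16 (quasi-likelihood, robust, TMM, filterByExpr with a minimum count of 10 and a minimum total of 15), and p-values were adjusted by Benjamini-Hochberg over every gene in the fit and called under 0.05. The 8 astrocyte libraries entered the astrocyte comparison, and all 12, in 4 groups, the other comparisons. SE was derived from the log2 fold change and its F statistic. DESeq2 1.42.0, limma 3.58.1 (voom), other scalings, no count filter, each library left out, library 202 counted as aKO and an animal block were alternatives. The scripts were tested on simulated counts.

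The 4 mice with both fractions share a number in the titles, read here as 1 brain. Deviations from the group means correlated at 0.166 for 203, 0.404 for 205, 0.0823 for 201 and 0.424 for 202 over 20637 genes. Intervals of shares are 95% Wilson intervals, and a count of 0 allows up to 3 reads.

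The genes and lists were chosen with earlier results of these data known, and some genes of the lists are not reported here. Of each pathway list the text names up to 4 genes that passed between fractions, by smallest p, or the 2 of lowest p where none passed. The 10 most alike genes had a mean log2 CPM of at least 0. Promoters are from RefSeq (GRCm38.p6), which matched 5 of the 6 genes, all but Slc4a1.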

Additional observations from a re-analysis of the deposited data

Results flagged for a closer look

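In the group of 5 aKO astrocyte libraries, 9 of 33 measures had 1 library set apart from the other 4 by a gap that took up most of the group's range (Dixon's test at the 95% level). Chance sets apart about 1 in 20 such groups, and the measures are not independent of each other. Mouse 208 was the high library in 7 of them: Hba-a1 at 431 CPM, Hba-a2 at 299 CPM, Hbb-bs at 810 CPM, Alas2 at 18.0 CPM, Ermap at 0.661 CPM, Hemgn at 0.287 CPM, and the share of globin reads at 0.172%. Hbb-bt was also highest there, at 182 CPM, without passing this test. The embryonic globin Hbb-y was apart in mouse 222, at 16.9 CPM. Kel was apart in mouse 205, at 0.214 CPM.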

How the results depend on the processing

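All 6 genes stayed lower in astrocytes than in flowthrough and past the threshold in every alternative with an adjusted p (21 each, 22 for Slc4a1), from -5.33 to -2.24 on the log2 scale. DESeq2 gave no p-value at all for the 5 genes other than Slc4a1, so it is not among their alternatives here. Where flowthrough lost 1 library, the lone one left in its genotype was assumed to vary like the other groups.

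The number of genes called between aKO and WT astrocytes, 5 in the reported fit, was 8 with no count filter, 14 in DESeq2, 3 without aKO 222 and WT 265, 0 with library 202 as aKO, 1 with all 12 libraries in 1 fit, and 0 to 5 with 1 library left out. In flowthrough it was 0, against 45 with no filter and 0 to 1 with 1 library left out. Between fractions it was 3515, against 1691 (without WT 201 flowthrough) to 4107 with 1 library left out. For the difference of genotype effects it was 0, against 40 with no filter.

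With the replicate block (animal), 5951 genes passed between fractions, against 3562 in the same 8 libraries without it, and 1 gene passed for the difference of effects with the block and 1 without it. Among the 6 genes the block changed no call.

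Among the signs that turned, Car1 alone had passed in the reported fit. With 1 library left out, aKO against WT astrocytes ran from -1.51 to 1.32 (Hba-a1), -1.59 to 1.22 (Hba-a2), -1.42 to 1.31 (Hbb-bs), -1.18 to 1.18 (Hbb-bt) and -0.50 to 0.99 (Alas2). In flowthrough Hbb-bt ran from -0.044 to 1.83, Alas2 from -3.39 to 0.29 and Arntl from -0.92 to 0.0025. The difference of effects ran from -2.29 to 0.44 (Hba-a1), -2.43 to 0.28 (Hba-a2), -2.41 to 0.24 (Hbb-bs) and -2.16 to 0.34 (Hbb-bt). Between fractions Car1 ran from -3.77 to 0.99 and Urod from -0.82 to 0.37. Without both aKO 222 and WT 265, the 4 globins gave 1.27, 1.19, 1.29 and 1.03 in astrocytes and 0.41, 0.25, 0.22 and 0.20 for the difference of effects. The cause was not tested.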
